A study of Mus musculus with 12 samples.

Results

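The genes described here are the aminoacyl-tRNA synthetases of mouse, the enzymes that load each transfer RNA with its amino acid, together with a pair of scaffold proteins that hold several of them in a complex. They were taken from the deposited gene counts by symbol. All 38 listed symbols were present among the 12483 genes of the table, Mars1 under its older name Mars, and all 38 had enough counts to be tested. Of these, 20 encode cytosolic enzymes, 16 encode mitochondrial enzymes (the suffix 2 in their symbols) and 2, Aimp1 and Aimp2, encode scaffolds. The suffix of Aimp2 does not mark a mitochondrial protein.

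Protein synthesis runs in both the cytosol and the mitochondrial matrix, and most amino acids have a separate nuclear gene for the enzyme of each compartment. Gars and Kars serve both compartments from 1 gene, and Eprs encodes a fused enzyme for glutamate and proline. Many cytosolic synthetase genes are known targets of ATF4, the transcription factor of the integrated stress response, and Wars, which charges tryptophan, is a long-known interferon-gamma-induced gene.

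RNA was sequenced from RAW264.7 cells, a mouse macrophage line, cultured as clones that carried a CRISPR deletion of an element named NRE1 (KO clones 1A, 1B and 2) or were wild type for it (WT clones 1, 2 and 3). The labels describe clones grown from single cells after selection for GFP and puromycin resistance carried by the CRISPR constructs. Each clone gave 1 library after 6 h in medium and 1 after 6 h with LPS at 10 ng/mL and IFN-gamma at 50 ng/mL, so each of the 4 groups held 3 libraries. The labels neither expand the name NRE1 nor say how KO 1A and 1B are related. If these 2 are 1 clone, the KO groups hold 2 independent clones. Every p-value below then measures only the spread between these clones in the pooled fit. Counts of genes for which all 3 KO libraries lie on the same side of the WT libraries would then rest on 2 clones as well. Library totals ran from 10624591 to 14388590 counts. All 8 macrophage markers examined were in the table and tested, although Mertk had only 0 to 9 counts in the medium libraries. Of 4 dendritic cell markers 3 were tested, with a summed level of at most 29.6 CPM in any library. CPM is the unit of level used here, a count relative to the TMM-scaled total of its library. In some genes named further on, Cars and Aars among them, the response of WT clone 2 lay apart from those of WT clones 1 and 3, while its median response over the cytosolic enzymes lay near that of WT clone 3.

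The promoters of the synthetase genes are shown first. The ATF4-type letters described below were found in cytosolic promoters alone among those at hand. The motifs were chosen with earlier results of these data known, and many cytosolic synthetase genes are known ATF4 targets. The counts are therefore a description and no independent support. RefSeq promoter windows of assembly GRCm38.p6, 250 bases before to 50 bases after the start, were at hand for 29 of the 38 genes, 13 of them cytosolic, 14 mitochondrial and 2 scaffold. The letters TGATGNAA, a core of the composite element that ATF4 binds with C/EBP partners, were searched on both strands. They occurred in 5 of 13 cytosolic promoters (Aars, Gars, Iars, Tars and Yars), in 0 of 14 mitochondrial promoters and in 0 of 2 scaffold promoters. Across all 32851 promoters 3.97% held these letters, and among the 9002 genes of the table with a promoter entry 2.78% did. Aars held 2 matches and the other 4 genes 1 each. No entry was at hand for Cars, Hars, Lars, Nars, Rars, Vars, Wars, Hars2 and Pars2.

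The windows below run from 120 bases before to 30 bases after the start, 5′ to 3′ on the strand of the gene, with each TGATGNAA match in capitals. Matches on the opposite strand read as TTGCATCA or TTTCATCA. The Aars2 window is printed as the mitochondrial counterpart without a match.
Aars: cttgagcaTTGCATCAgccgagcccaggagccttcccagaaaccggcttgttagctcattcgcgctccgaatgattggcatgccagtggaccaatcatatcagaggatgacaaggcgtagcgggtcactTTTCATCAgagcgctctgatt
Gars: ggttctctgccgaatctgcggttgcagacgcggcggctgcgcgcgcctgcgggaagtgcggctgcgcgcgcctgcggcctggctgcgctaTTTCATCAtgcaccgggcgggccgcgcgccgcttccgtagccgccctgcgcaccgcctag
Iars: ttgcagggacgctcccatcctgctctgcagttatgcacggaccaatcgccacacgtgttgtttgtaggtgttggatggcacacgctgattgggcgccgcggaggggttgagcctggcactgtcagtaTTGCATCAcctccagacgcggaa
Tars: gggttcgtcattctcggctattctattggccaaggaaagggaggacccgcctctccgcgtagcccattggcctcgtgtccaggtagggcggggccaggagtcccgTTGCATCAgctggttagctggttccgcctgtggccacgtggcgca
Yars: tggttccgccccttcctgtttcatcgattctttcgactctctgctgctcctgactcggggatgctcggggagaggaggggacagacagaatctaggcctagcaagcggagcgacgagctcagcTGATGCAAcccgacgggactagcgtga
Aars2: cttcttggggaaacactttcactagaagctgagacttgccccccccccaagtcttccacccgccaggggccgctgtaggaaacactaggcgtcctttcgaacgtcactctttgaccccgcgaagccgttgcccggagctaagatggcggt

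In GRCm38.p6 the windows of Aars (chr8:111033722-111033871), Gars (chr6:55037881-55038030), Iars (chr13:49682010-49682159) and Yars (chr4:129189783-129189932) lie on the plus strand, as does that of Aars2 (chr17:45506712-45506861). The Tars window (chr15:11399629-11399778) lies on the minus strand. Counting from the start, with bases after it positive, the matches began at -112 and 10 in Aars, -30 in Gars, 8 in Iars, -15 in Tars and 4 in Yars. Other motifs occurred in both classes or in a single gene. An IRF-type element occurred in Qars, against 3.44% of all promoters. The E-box CACGTG occurred in Aars, Farsb, Iars, Tars and the mitochondrial Ears2, against 7.15% of all promoters and 12.2% of the genes of the table. No match of one motif overlapped a match of another in these genes. A match describes letters in a window and does not show that a factor binds there.

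When the WT clones were given LPS and IFN-gamma, most called cytosolic enzymes rose and all called mitochondrial enzymes fell on the TMM scale, while scaling by library totals called cytosolic enzymes about as often lower as higher. Of the 20 cytosolic enzymes, 10 rose (Farsa, Gars, Hars, Kars, Lars, Nars, Rars, Tars, Wars and Yars) and 1, Mars1, fell. Of the 16 mitochondrial enzymes none rose and 8 fell (Aars2, Cars2, Ears2, Mars2, Nars2, Pars2, Tars2 and Vars2). The scaffolds Aimp1 and Aimp2 were not called. Calls rest on edgeR's quasi-likelihood test with a Benjamini-Hochberg adjusted p below 0.05 over all 12231 genes tested. Among all of these genes 23.8% were called higher and 23.6% lower. The median log2 fold change was 0.33 over the cytosolic and -0.40 over the mitochondrial enzymes, beside -0.01 over all genes tested. Scaling by library totals alone moved the median of all genes to -0.37, turned the cytosolic median to -0.03 and gave 5 cytosolic enzymes higher and 4 lower with 14 mitochondrial enzymes lower. Under that scaling 13% of all genes were called higher and 42.8% lower. Gars, Hars, Tars, Ears2 and Tars2 each lost the call when some single WT library was left out, and Hars and Hars2 share 8.0% and 4.6% of their exonic bases on opposite strands.

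The KO clones gave the same division with more calls. There 14 of 20 cytosolic enzymes rose, namely the 10 that rose in WT clones and also Aars, Cars, Iars and Sars, while Mars1 again fell. Of the 16 mitochondrial enzymes none rose and 10 fell, namely the 8 that fell in WT clones with Hars2 and Iars2 added. Aimp2 rose by 0.40 ± 0.14 (log2, SE; edgeR adjusted p = 0.034), but lost the call without any 1 of the KO libraries and shares 29.4% of its exonic bases with Eif2ak1 on the opposite strand, and whether counting used strand is not given in the sources used here. Mars1, Hars2 and Pars2 also lost the call without some single KO library. Among all genes 26.7% were called higher and 27.6% lower. The median log2 fold change was 0.66 over the cytosolic and -0.50 over the mitochondrial enzymes. Scaling by library totals put the median over all genes at -0.39, with 9 cytosolic enzymes higher and 4 lower, 14 mitochondrial enzymes lower, and 14.7% of all genes higher and 45.1% lower. No gene of the set was called in opposite directions by these scalings, although the log2 fold changes of Gars and Tars in WT clones changed sign. With clone as a replicate block 24 genes of the set were called in WT and 27 in KO clones, against 61.2% and 66.1% of all genes. This fit added Sars and Aimp1 as higher and Vars, Hars2 and Iars2 as lower in WT clones, and Vars as lower in KO clones. With the counts of KO 1A and 1B summed 16 and 19 were called, against 41.2% and 39.2%.

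**Figure D1:**
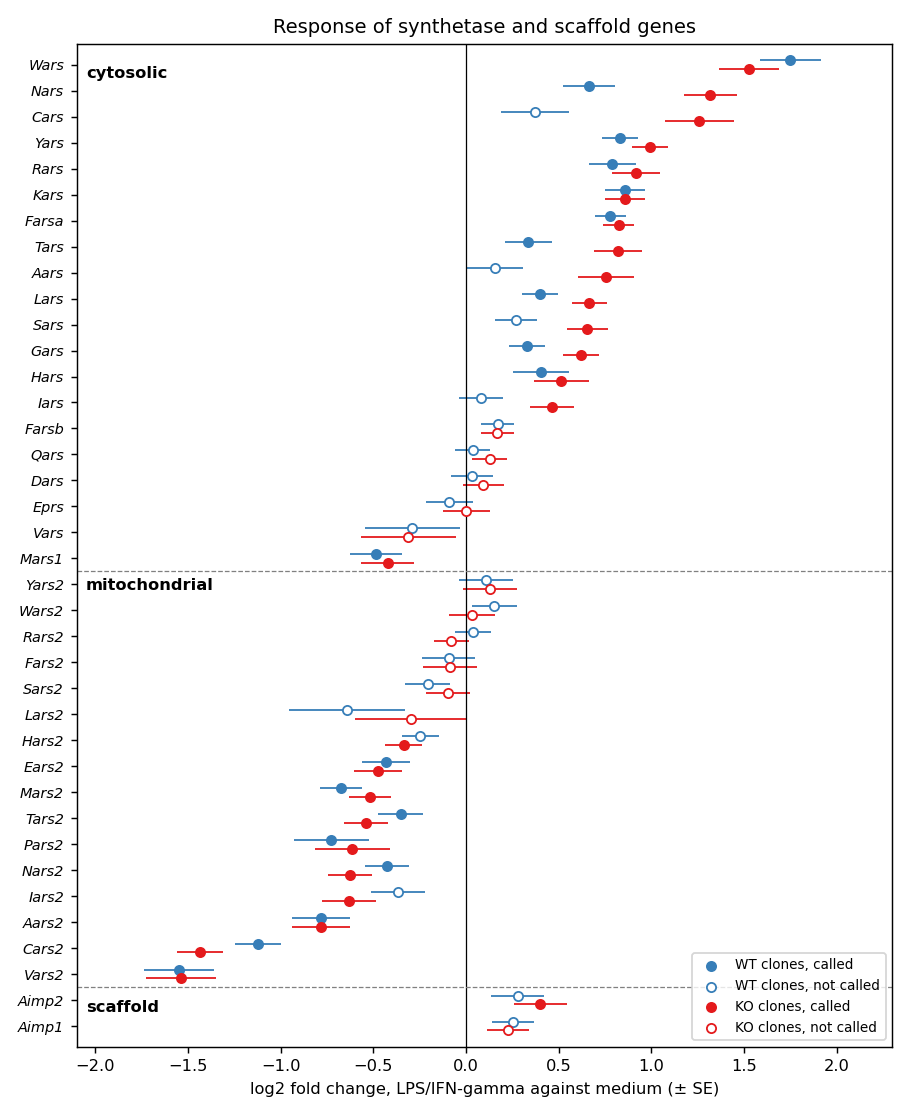
Log2 fold change of LPS/IFN-gamma against medium (x axis, with bars of 1 SE) for the 38 genes (rows, by class), in WT clones (blue) and KO clones (red). Filled points passed an edgeR adjusted p below 0.05; filled points right of zero are all cytosolic enzymes except Aimp2 in KO clones, and filled points left of zero are all mitochondrial except Mars1.

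Wars, the cytosolic tryptophan enzyme, had the highest log2 fold change of the set in both genotypes. Its level in WT clones 1, 2 and 3 was 116, 110 and 122 CPM in medium and 336, 499 and 334 CPM after stimulation. KO clones 1A, 1B and 2 had 101, 111 and 103 CPM of Wars in medium and 279, 273 and 353 CPM after stimulation. Every stimulated library lay above every medium library, and WT clone 2 was the highest of all. The log2 fold change was 1.75 ± 0.16 in WT clones (SE; edgeR adjusted p = 1.5e-05) and 1.53 ± 0.16 in KO clones (edgeR adjusted p = 2.5e-05).

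Its mitochondrial counterpart Wars2 did not pass the test. Wars2 measured 25.4, 32.4 and 28.7 CPM in WT clones 1, 2 and 3 in medium and 28.3, 34 and 33.9 CPM after stimulation. The KO clones 1A, 1B and 2 had 28.6, 30.8 and 26.7 CPM in medium and 30.2, 30.7 and 27.2 CPM after stimulation. The medium and stimulated libraries overlapped in both genotypes. The log2 fold changes were 0.15 ± 0.12 (edgeR adjusted p = 0.33) and 0.03 ± 0.12 (edgeR adjusted p = 0.84), and both turned negative with library totals alone (-0.21 and -0.34).

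Kars, Yars and Rars, for lysine, tyrosine and arginine, were the next highest of the cytosolic enzymes in WT clones. Kars went from 217, 218 and 266 CPM in medium to 427, 400 and 442 CPM after stimulation in WT clones 1, 2 and 3. It went from 235, 262 and 233 CPM to 440, 413 and 471 CPM in KO clones 1A, 1B and 2. No stimulated Kars library fell into the range of the medium libraries. Its log2 fold change was 0.86 ± 0.11 in both genotypes (edgeR adjusted p = 1.1e-04 in WT and 7.7e-05 in KO clones).

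Yars went from 140, 131 and 143 CPM to 241, 233 and 261 CPM in WT clones 1, 2 and 3, and from 148, 140 and 123 CPM to 267, 291 and 258 CPM in KO clones 1A, 1B and 2. Rars went from 273, 262 and 321 CPM to 582, 427 and 470 CPM in the WT clones and from 293, 318 and 288 CPM to 595, 540 and 563 CPM in the KO clones. For both genes the stimulated and medium libraries were fully apart. The log2 fold changes of Yars were 0.83 ± 0.10 in WT and 0.99 ± 0.10 in KO clones (edgeR adjusted p = 6.3e-05 and 1.5e-05). Those of Rars were 0.79 ± 0.13 and 0.92 ± 0.13 (edgeR adjusted p = 5.3e-04 and 1.5e-04).

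Nars and Cars, for asparagine and cysteine, stood nearer to the other enzymes in WT clones and next to Wars in KO clones. Nars measured 395, 371 and 381 CPM in medium and 734, 476 and 608 CPM after stimulation in WT clones 1, 2 and 3. In KO clones 1A, 1B and 2 it measured 350, 362 and 353 CPM in medium and 953, 825 and 875 CPM after stimulation. All stimulated KO libraries lay above all stimulated WT libraries, and all KO medium libraries lay below all WT medium libraries. Nars rose by 0.66 ± 0.14 in WT clones (log2, SE; edgeR adjusted p = 0.0026) and by 1.32 ± 0.14 in KO clones (edgeR adjusted p = 2.7e-05). With library totals alone the WT value was 0.31 (edgeR adjusted p = 0.096).

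Cars measured 103, 105 and 108 CPM in medium and 156, 87.7 and 165 CPM after stimulation in WT clones 1, 2 and 3. In KO clones 1A, 1B and 2 it measured 89.1, 94 and 89.9 CPM in medium and 227, 214 and 212 CPM after stimulation. WT clone 2 was the only clone of the 6 in which Cars was lower after stimulation. The log2 fold change was 0.37 ± 0.18 in WT clones (edgeR adjusted p = 0.12) and 1.26 ± 0.19 in KO clones (edgeR adjusted p = 2.2e-04). Without WT clone 2 in both conditions, an alternative chosen after seeing the data, the WT value was 0.58 ± 0.09 (edgeR adjusted p = 8.6e-04).

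Eprs, the fused enzyme for glutamate and proline, had the highest CPM in medium of the 10 genes given by library and no call. It measured 742, 984 and 838 CPM in medium and 859, 856 and 694 CPM after stimulation in WT clones 1, 2 and 3. KO libraries 1A, 1B and 2 measured 841, 927 and 835 CPM in medium and 897, 846 and 861 CPM after stimulation. The conditions overlapped in both genotypes, with log2 fold changes of -0.09 ± 0.13 and 0.00 ± 0.13 (edgeR adjusted p = 0.59 and 1). Library totals alone gave -0.45 and -0.38 (edgeR adjusted p = 0.011 and 0.023). The other cytosolic enzymes without a call in either genotype were Dars, Farsb, Qars and Vars, for aspartate, phenylalanine, glutamine and valine.

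Vars2 and Cars2, the mitochondrial enzymes for valine and cysteine, had the lowest log2 fold changes of the set. Vars2 measured 35.6, 30.8 and 34.5 CPM in medium and 14.6, 8.52 and 11.4 CPM after stimulation in WT clones 1, 2 and 3. In KO clones 1A, 1B and 2 it measured 42.7, 46 and 35.3 CPM in medium and 16.4, 13.7 and 12.7 CPM after stimulation. The conditions did not overlap. Vars2 fell by 1.55 ± 0.19 in WT clones and by 1.54 ± 0.19 in KO clones (log2, SE; edgeR adjusted p = 8.7e-05 and 6.4e-05). An antisense transcript overlaps 8.5% of its exonic bases and is not in the table.

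Cars2 went from 27.2, 23.4 and 30 CPM to 12.5, 12.6 and 12 CPM in WT clones 1, 2 and 3. In KO clones 1A, 1B and 2 it went from 28.3, 28.3 and 25.7 CPM to 11, 9.39 and 9.96 CPM. The 3 stimulated KO libraries lay below the 3 stimulated WT libraries, and the medium libraries of the genotypes overlapped. Cars2 fell by 1.12 ± 0.12 in WT clones and by 1.44 ± 0.12 in KO clones (log2, SE; edgeR adjusted p = 4.1e-05 and 6.6e-06). The remaining mitochondrial enzymes called in KO clones fell by between 0.34 (Hars2) and 0.78 (Aars2). Fars2, Lars2, Rars2, Sars2, Wars2 and Yars2 were not called in either genotype.

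**Figure D2:**
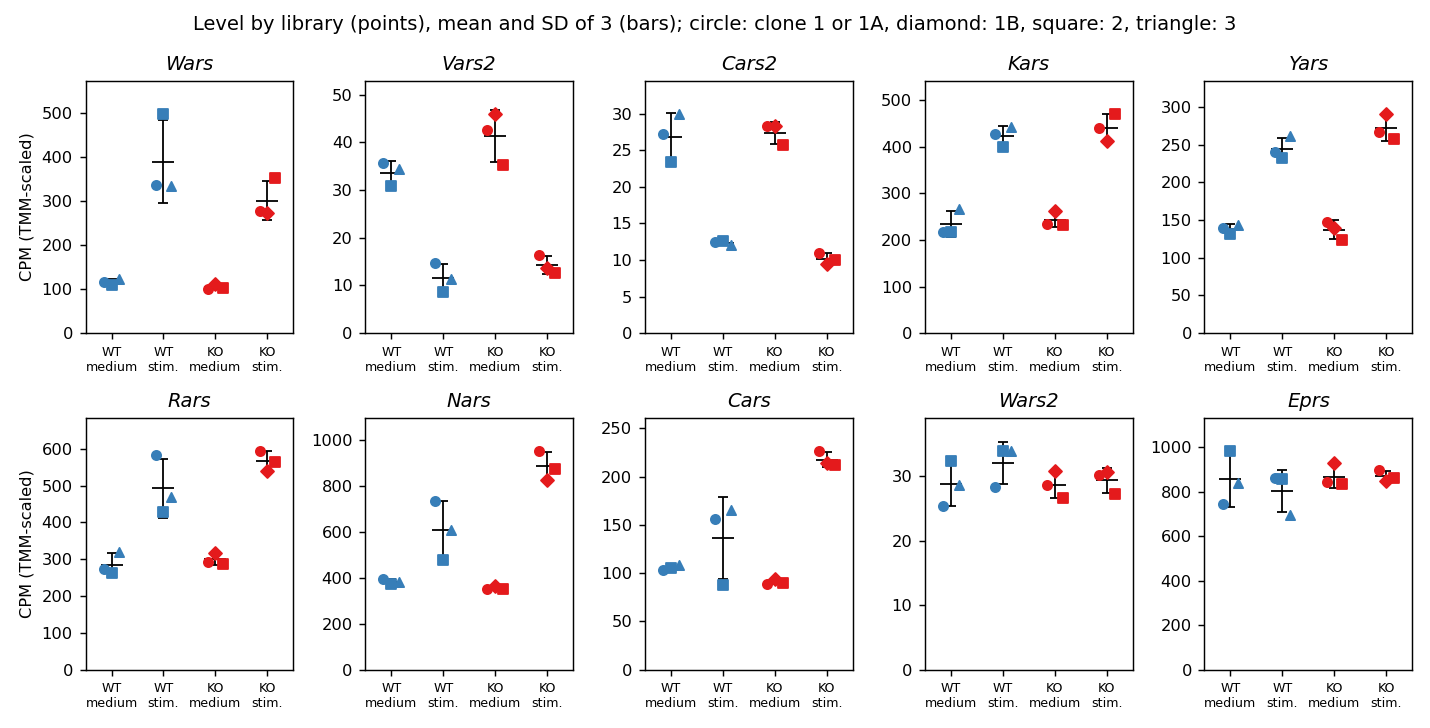
Level in CPM (y axis, from zero, a separate scale per gene) of the 10 genes given by library, in the 4 groups of 3 libraries (points, shaped by clone), with the mean and SD as bars. Wars, Kars, Yars, Rars and Nars are higher and Vars2 and Cars2 lower after stimulation in every clone, WT clone 2 (square) is the low point of Cars and Nars after stimulation, and Wars2 and Eprs overlap between conditions.

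Setting the enzymes side by side by amino acid removes the library scaling, since it cancels in the difference between genes of the same library. The set holds 17 pairs of a cytosolic and a mitochondrial enzyme over 16 amino acids, in which Eprs and Fars2 each appear in more than 1 pair. The cytosolic log2 fold change lay above the mitochondrial one in 17 of 17 pairs in WT clones and in 17 of 17 in KO clones. The difference had a median of 0.72 in WT clones, with a range from 0.19 (Mars1 and Mars2) to 1.60 (Wars and Wars2). In KO clones the median was 0.96, with a range from 0.10 (Mars1 and Mars2) to 2.69 (Cars and Cars2). In 15 of the 17 pairs the cytosolic enzyme responded above the mitochondrial one in each of the 6 clones. The exceptions were Farsb and Fars2, at -0.19 in WT clone 3, and Mars1 and Mars2, at -0.02 in KO clone 1B.

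The pairs reached this difference in several ways. Aars and Aars2, for alanine, had log2 fold changes of 0.16 and -0.78 in WT clones and 0.76 and -0.78 in KO clones, so only the cytosolic value was higher in KO clones. Iars and Iars2, for isoleucine, had 0.08 and -0.37 in WT clones and 0.46 and -0.63 in KO clones. The isoleucine values carry a limit, since Iars2 shares 22.9% of its exonic bases with Rab3gap2 on the opposite strand. Yars2, for tyrosine, had 0.11 and 0.13 beside the called rise of Yars. In the pooled fit methionine was the exception among the amino acids, with both enzymes called lower. Mars1 fell by 0.49 ± 0.14 and 0.42 ± 0.14 and Mars2 by 0.68 ± 0.12 and 0.52 ± 0.11 in WT and KO clones (log2, SE, with edgeR adjusted p from 7.4e-04 to 0.025). Vars, for valine, was at -0.29 and -0.31 beside the called fall of Vars2. The fit with clone as a block called Vars lower in both genotypes.

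**Figure D3:**
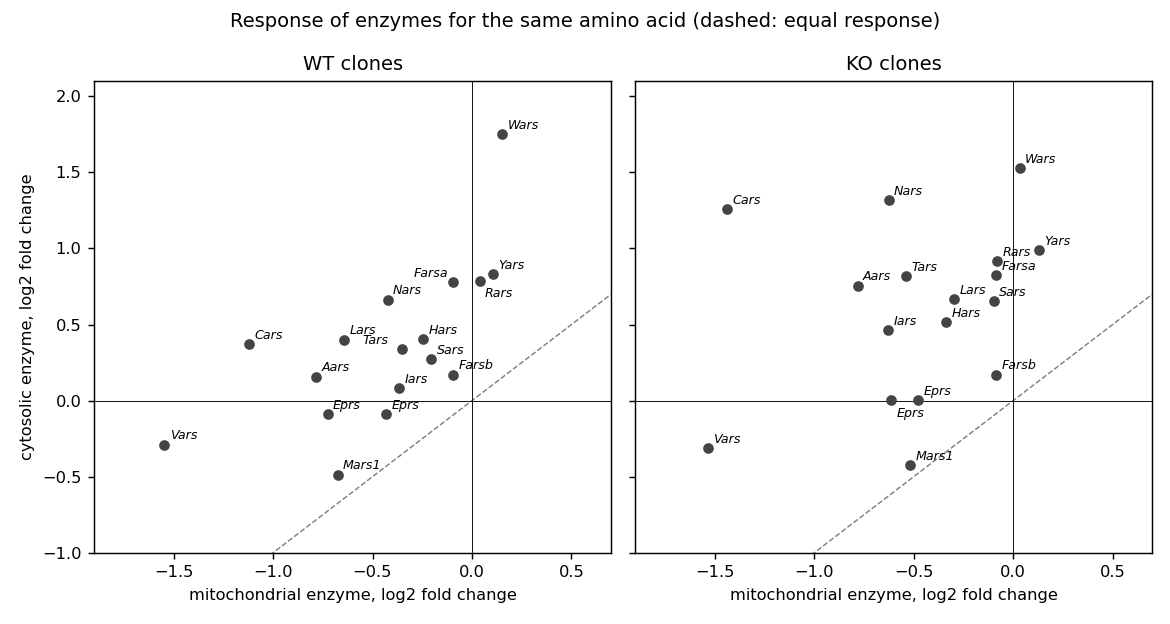
Log2 fold change (LPS/IFN-gamma against medium) of the mitochondrial (x axis) and the cytosolic enzyme (y axis) for the same amino acid, in WT clones (left) and KO clones (right), 1 point per pair named by its cytosolic gene. All 17 points lie above the dashed line of equal response in both panels, Mars1 nearest to it.

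Cytosolic enzymes had higher levels per length than mitochondrial enzymes in all 4 groups. On the RPKM scale (CPM per kilobase of annotated exon), the median over the cytosolic enzymes was 47.1 ± 3.98 in WT clones in medium and the median over the mitochondrial enzymes 4.75 ± 0.25 (SD, n = 3). After stimulation the medians were 54.4 ± 6.36 and 3.48 ± 0.307. In KO clones the cytosolic median was 49.4 ± 2.58 in medium and 66.5 ± 2.8 after stimulation, and the mitochondrial median 4.68 ± 0.111 and 3.34 ± 0.18. Each stimulated median is a level on this scale and not a test.

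In WT clones in medium, Gars (100 ± 6.38 RPKM), Rars (88.4 ± 9.65 RPKM), Nars (87.8 ± 2.78 RPKM) and Hars (85.4 ± 17 RPKM) had the highest levels per length. The ranges of mean ± SD of neighbours in this order overlapped. With the longest annotated transcript as the length, Eprs came first at 152 RPKM, followed by Nars, Rars and Gars at 139, 135 and 131 RPKM. Cars was the lowest cytosolic enzyme at 16.0 ± 0.358 RPKM. The highest mitochondrial enzyme was Iars2 at 23.5 ± 3.5 RPKM, close to Yars at 23.2 ± 1.02 RPKM, and the lowest was Lars2 at 0.745 ± 0.177 RPKM, although Mars2 (2.07 RPKM) was just below Lars2 (2.12 RPKM) by the longest transcript. The cytosolic enzyme lay above the mitochondrial one for the same amino acid in every library of WT clones in medium in 17 of 17 pairs, with ratios of the means from 1.26 (Iars and Iars2) to 103 (Lars and Lars2). With the longest annotated transcript as the length this held in 16 of 17 pairs, the ratio for Iars and Iars2 was 0.925 and that for Lars and Lars2 48.7. The class medians were then 72.8 and 7.39 RPKM. Levels per length thus depend on the length used.

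Between KO and WT clones edgeR called no gene of the set in either condition, while DESeq2 called 8 after stimulation. In medium edgeR called 0 of 38 genes, where 1.21% of all genes were called. Of the 38, 3 had an unadjusted p below 0.05, beside 1720 of all 12231 genes. DESeq2 also called 0 (5.09% of all genes), as did the fit with clone as a block (1.46%). After stimulation edgeR called 0 of 38 genes, against 4.64% of all genes. There 14 of the 38 had an unadjusted p below 0.05, beside 2596 of all 12231 genes. The nearest were Nars at 0.55 ± 0.14 (log2 KO over WT, SE; edgeR adjusted p = 0.051), Cars at 0.68 ± 0.18 (0.064), Qars at 0.32 ± 0.09 (0.075) and Aars at 0.51 ± 0.15 (0.085). DESeq2 called 7 genes higher in KO clones (Aars, Cars, Gars, Iars, Nars, Qars and the mitochondrial Lars2) and Iars2 lower, against 9.62% of all genes called by that tool. The fit with clone as a block called 0, against 2.99% of all genes. Leaving out single libraries called up to 3 genes, and leaving out WT clone 2 called Cars.

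The stimulated level in KO clones was above that in WT clones for 19 of 20 cytosolic enzymes, with a median log2 difference of 0.23. The mitochondrial enzymes split 8 and 8 with a median of 0.03, and 5807 of all 12231 genes were higher. In DESeq2 19 cytosolic enzymes were higher and 1 lower, and 11 mitochondrial enzymes were higher and 5 lower. All 3 stimulated KO libraries lay above all 3 stimulated WT libraries for 8 of 20 cytosolic enzymes (Aars, Cars, Gars, Iars, Nars, Qars, Sars and Tars), where 11.3% of all genes did so. Among mitochondrial enzymes the KO libraries were all higher for Mars2 and all lower for Cars2, Iars2 and Rars2, where 12.7% of all genes were all lower. In medium the KO libraries were all higher for Qars, Lars2, Mars2, Nars2 and Tars2 (9.50% of all genes) and all lower for Cars and Nars (11.4% of all genes). Lars2, for leucine, had the largest log2 difference in level between genotypes. In medium it was at 10.5, 7.36 and 6.9 CPM in WT clones 1, 2 and 3. KO clones 1A, 1B and 2 had 15.1, 12.7 and 10.5 CPM in medium. There WT clone 1 and KO clone 2 (145 and 128 counts) were apart only beyond the digits given. After stimulation Lars2 was at 3.92, 4.16 and 7.79 CPM in the WT clones and at 11.7, 12.5 and 7 CPM in the KO clones, which overlap. The difference of 0.97 ± 0.32 after stimulation (log2, SE) did not pass the test (edgeR adjusted p = 0.11). Lars2 was singled out after its values were seen.

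Of the 8 macrophage markers, edgeR called 1 lower in KO clones in medium (Itgam, against 1.21% of all genes called). After stimulation it called 0 (4.64%), where 5 of the 8 and 2596 of all 12231 genes had an unadjusted p below 0.05. DESeq2 called 3 and 4 lower, against 3.7% and 6.48% of all genes. With KO 1A and 1B summed edgeR called 0 in both conditions. In medium the summed level of the 8 markers ran from 7738 to 18817 CPM in WT clones. In KO clones it ran from 4209 to 13318 CPM. After stimulation the ranges were 8496 to 18112 CPM and 4310 to 9160 CPM, so the sums of the genotypes overlapped. Lyz2 was the largest part of the sum in every library, at 4990 to 14800 CPM in WT clones in medium. In medium all 3 KO libraries lay below all 3 WT libraries for Adgre1, Itgam and Fcgr1 (11.4% of all genes). After stimulation they did so for Csf1r, Cd68, Adgre1 and Fcgr1 (12.7%) and lay above for Mertk (11.3%). Mertk was near the floor, with 3 to 32 counts in the stimulated libraries. The other markers overlapped in each condition. The part of these 8 markers in the values of the synthetase genes was not tested.

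How far the responses differed between genotypes was tested as an interaction, which was not called for any gene of the set or of the table by edgeR (0 of 12231, with 611 at an unadjusted p below 0.05). Of the set, 6 genes, all cytosolic, had an unadjusted p below 0.05. DESeq2 called 20 genes of the table (0.164%) and the fit with clone as a block 40 (0.327%). Neither called a gene of the set. At an unadjusted p below 0.05 each had 8 genes of the set. Of all 12231 genes DESeq2 had 645 at that threshold and the block fit 1418. The largest differences in log2 response were those of Cars at 0.89 ± 0.26 (SE; edgeR adjusted p = 0.70), Nars at 0.65 ± 0.20 (0.75) and Aars at 0.60 ± 0.21 (0.83). The median difference was 0.12 over the cytosolic and -0.02 over the mitochondrial enzymes, beside -0.01 over all genes tested. A p above the threshold does not show that the responses were alike.

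The responses of single clones ordered the genotypes by class. The median log2 response of the 20 cytosolic enzymes was 0.55, 0.18 and 0.21 in WT clones 1, 2 and 3 and 0.73, 0.61 and 0.69 in KO clones 1A, 1B and 2. Every KO clone had a higher cytosolic median than every WT clone, and WT clone 1 lay nearest to the KO clones. The mitochondrial medians were -0.34, -0.31 and -0.46 in the WT and -0.50, -0.36 and -0.58 in the KO clones, which overlap.

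All 3 KO responses lay above all 3 WT responses for 8 of 20 cytosolic enzymes (Aars, Cars, Gars, Iars, Lars, Nars, Sars and Tars) and for 0 of 16 mitochondrial enzymes, where 8.18% of all genes did so. All 3 KO responses lay below for 0 of 20 cytosolic and 1 of 16 mitochondrial enzymes (Cars2), where 9.39% of all genes did. Cars responded by 0.60, -0.26 and 0.61 in WT clones 1, 2 and 3 and by 1.35, 1.18 and 1.24 in KO clones 1A, 1B and 2. Aars responded by 0.31, -0.23 and 0.31 in the WT and by 0.80, 0.66 and 0.81 in the KO clones. In both genes WT clone 2 had a negative value, and WT clones 1 and 3 still lay below the KO clones. Wars ran the other way within the WT clones, at 1.54, 2.18 and 1.46, with WT clone 2 the highest of the 6 clones.

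**Figure D4:**
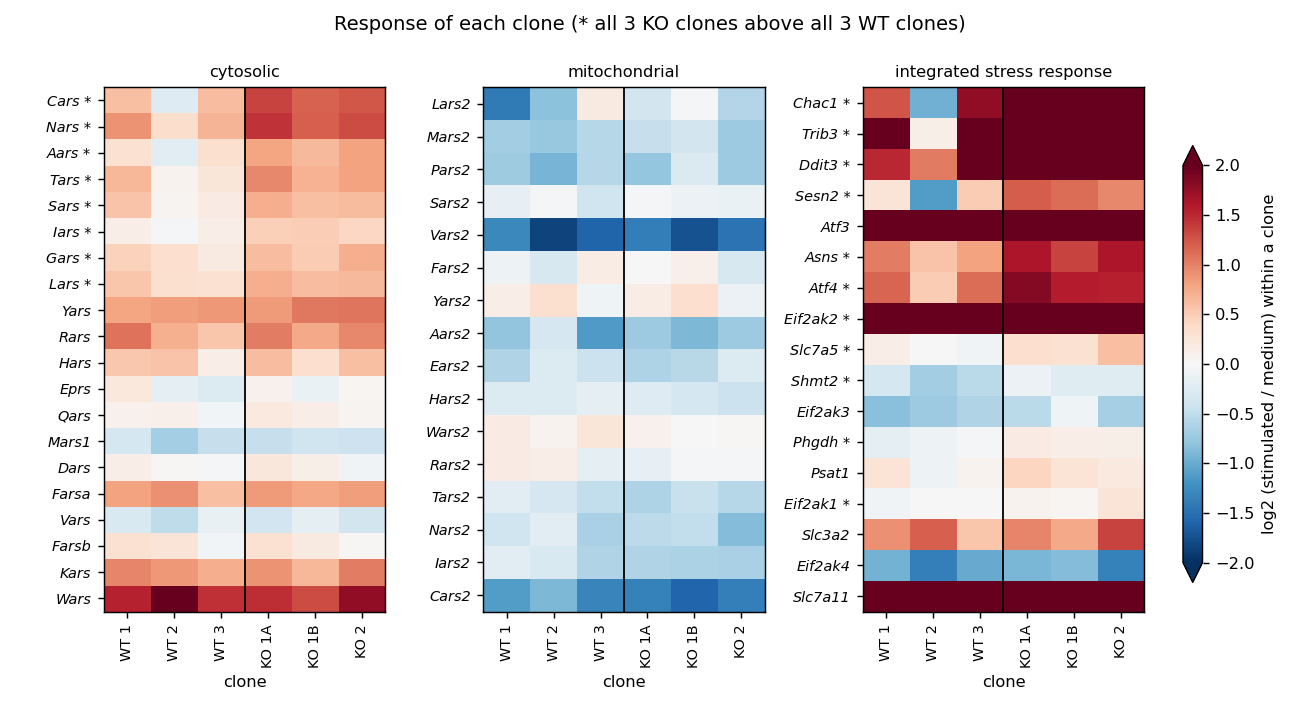
Log2 response within each clone (colour, stimulated over medium, limited to between -2 and 2) for the cytosolic enzymes, the mitochondrial enzymes and 17 integrated stress response genes (rows, ordered within each panel by how far KO responses exceed WT responses), with 3 WT and 3 KO clones as columns. Stars mark genes whose 3 KO responses all lie above the 3 WT responses, which are 8 of 20 cytosolic and 0 of 16 mitochondrial enzymes.

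Genes of the integrated stress response, which slows general translation and induces amino acid supply through ATF4, were examined beside the synthetases. Of the 17 listed, 8 rose and 2 fell in WT clones and 10 rose and 2 fell in KO clones, beside 23.8% of all genes higher and 23.6% lower in WT and 26.7% and 27.6% in KO clones. The median log2 fold changes were 0.80 and 1.10. Library totals alone gave 8 higher and 4 lower, and 10 and 4. Under that scaling 13% of all genes were higher and 42.8% lower in WT clones, and 14.7% and 45.1% in KO clones. In WT clones the smallest p-values belonged to Eif2ak2, an interferon-induced kinase of this response that senses double-stranded RNA, at 2.63 ± 0.30, and to Slc7a11, the cystine transporter subunit, at 3.98 ± 0.47. In KO clones they belonged to Asns, asparagine synthetase, which rose by 1.53 ± 0.13, and Ddit3, encoding the factor CHOP, which rose by 2.96 ± 0.27 (log2, SE; edgeR adjusted p = 7.4e-06 and 1e-05). Asns was the 1 gene of the 17 listed that edgeR called between genotypes after stimulation, where 4.64% of all genes were called. Its difference was 0.66 ± 0.13 (log2 KO over WT, SE, edgeR adjusted p = 0.021). DESeq2 called 3 of the 17, against 9.62% of all genes. The edgeR call of Asns was lost with KO 1A and 1B summed (adjusted p = 0.12) and without any 1 of the stimulated KO libraries.

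The list and the cytosolic synthetases had their lowest median response in the same clone, WT clone 2. Over the cytosolic synthetases, however, WT clone 2 (0.18) lay close to WT clone 3 (0.21), which it did not in the list. The median log2 response of the list was 0.92, 0.005 and 0.56 in WT clones 1, 2 and 3 and 1.21, 1.12 and 1.35 in KO clones 1A, 1B and 2. All 3 KO responses lay above all 3 WT responses for 11 of the 17 genes, against 8.18% of all genes. Atf4 itself, singled out after its values were seen, measured 316, 290 and 300 CPM in medium and 706, 414 and 650 CPM after stimulation in WT clones 1, 2 and 3. KO clones 1A, 1B and 2 measured 258, 262 and 267 CPM in medium and 915, 780 and 785 CPM after stimulation. The stimulated KO libraries lay above, and the medium KO libraries below, all WT libraries of the same condition. Of the 20 cytosolic enzymes Nars and Cars alone had this order too. Among all genes 11.3% had all KO libraries higher after stimulation and 11.4% had them all lower in medium. The share of genes with both was not counted. The difference between genotypes in the response of Atf4, 0.69 ± 0.24 (log2, SE), was not called (edgeR adjusted p = 0.79). Whether the genes of the list set the synthetase levels was not tested.

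Cytosolic enzymes with the letters TGATGNAA in the promoter windows printed above can be read against those without. The 5 genes with a match had log2 fold changes from 0.08 to 0.83 in WT clones (median 0.33), of which 3 were called higher, and from 0.46 to 0.99 in KO clones (median 0.76), of which 5 were called higher. The 8 with an entry and no match ran from -0.49 to 0.86 in WT clones (median 0.10), with 2 called higher and 1 lower, and from -0.42 to 0.86 in KO clones (median 0.15), with 3 higher and 1 lower. In WT clones the range without a match thus covered the range with one. The 7 without an entry, Cars, Nars and Wars among them, had medians of 0.40 and 0.92. The median difference in response, KO over WT, was 0.38 with a match, 0.06 without and 0.13 where no entry was at hand. The motif was chosen with the responses known, and these medians are a description.

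Other genes of tRNA charging were called lower more often than higher. Of 14 listed partners, 2 rose and 7 fell in WT clones (23.8% and 23.6% of all genes) and 3 rose and 8 fell in KO clones (26.7% and 27.6%), with medians of -0.37 and -0.41. Library totals alone gave 1 higher and 9 lower in each genotype. Under that scaling 13% of all genes were higher and 42.8% lower in WT clones, and 14.7% and 45.1% in KO clones. Pstk, the kinase that acts on serine-charged selenocysteine tRNA, fell by 0.90 ± 0.13 in both genotypes (log2, SE; edgeR adjusted p = 2.4e-04 and 2.0e-04). Dtd1, which removes wrongly attached D-amino acids from tRNA, rose by 1.00 ± 0.11 in WT and 0.41 ± 0.11 in KO clones (edgeR adjusted p = 4.7e-05 and 0.0087).

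The factors that use charged tRNA were examined in the same way. Of 9 cytosolic translation factors, 4 rose in WT and 4 in KO clones and none fell (23.8% and 26.7% of all genes rose). Their medians were 0.28 and 0.33. Library totals alone gave 0 and 1 higher, against 13% and 14.7% of all genes, and medians of -0.08 and -0.05. Eif4a1, the helicase of the initiation complex, rose by 0.59 ± 0.10 and 0.69 ± 0.10, and Eif5a, a factor of elongation, by 0.55 ± 0.14 and 0.57 ± 0.14 (log2, SE). Of 9 mitochondrial translation factors edgeR called none in WT clones. There 1 of the 9 had an unadjusted p below 0.05, beside 6674 of all 12231 genes. DESeq2 called 0 and the block fit 1 lower, against 24.2% and 31.4% of all genes. In KO clones Mtif3 rose and Mtif2 fell (26.7% and 27.6% of all genes). The medians were -0.10 and 0.00. Library totals alone called 4 of the 9 lower in WT and 5 in KO clones, against 42.8% and 45.1% of all genes. In KO clones the block fit called 3 lower and 1 higher, against 34% and 32.1% of all genes. Whether these lists differ from the synthetases was not tested.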

How the data were processed

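Gene counts of 12 libraries were deposited by the authors as whole numbers per Ensembl gene. Of the upstream steps only build mm10 (GRCm38) and DESeq2 are listed in the submitters' processing notes. How reads were aligned and counted, and whether by strand, is not given in the sources used here. Symbols, positions and exon lengths came from GENCODE M21 (GRCm38), and promoters from RefSeq.

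Counts were tested in R 4.3.3 with edgeR 4.0.16. Of the genes, 12231 passed filterByExpr, TMM scaled the libraries, and a robust quasi-likelihood fit with 1 mean per group left 8 residual degrees of freedom. SE is the log2 fold change over the square root of the F statistic. P-values were Benjamini-Hochberg adjusted over all genes, and comparisons that share libraries are not independent. CPM and RPKM use TMM-scaled totals.

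Alternatives were DESeq2 1.42.0, other scalings, no low-count filter, clone as a replicate block (limma 3.58.1 for KO against WT), KO 1A and 1B summed, and leaving out libraries. Both libraries of a clone share its number, which the labels give. Their deviations from the group means correlated at 0.25 to 0.70 in the 6 clones. On simulated counts with 2-fold changes in WT stimulated libraries, 46.4% of 196 changed genes were recovered, with 3 false calls. The simulation gave all 12060 genes 1 common spread and changed few of them. In the data 47.4% of genes were called in WT clones, so the simulated share does not describe recovery there.

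The members, lists and motifs were chosen with earlier results of these data known. Values by library are given for the 6 called genes with the largest change in each response and for Wars, Wars2 and Eprs, and listed genes are named by the 2 smallest p-values. Other single genes show ends of ranges or pairs. Some items covered by these rules are not reported here.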

Additional observations from a re-analysis of the deposited data

How the results depend on the processing

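No alternative called a gene of the set in the direction opposite to its call, and none called one for the difference between responses. Some counts by enzyme class and between genotypes moved by over 1.5 times. Cytosolic enzymes lower went from 1 to 4 with library totals and to 2 with the clone block in each genotype. In KO clones that count went to 0 with KO 1A and 1B summed. It also did so without some single KO libraries, where Mars1 lost its call. Library totals alone gave 5 (WT) and 9 (KO) cytosolic enzymes higher and 14 mitochondrial enzymes lower in WT clones. For KO against WT after stimulation DESeq2 called 8, and the fit without WT clone 2 called 1 (Cars, chosen after seeing the data). In that comparison 0 to 3 genes were called when single libraries were left out. The calls were 2 without the stimulated library of WT clone 1 and 1 without that of WT clone 2. Without that of WT clone 3 they were 3. Leaving out single libraries gave 15 to 22 calls in WT and 22 to 24 in KO clones, 7 to 13 and 14 cytosolic enzymes higher, 6 to 8 and 8 to 10 mitochondrial enzymes lower, and class differences of 0.62 to 0.89 and 1.09 to 1.20, around 0.73 and 1.16. The replicate block, with clone as the pair, gave 24 calls in WT clones in place of 19 and 27 in KO clones in place of 26, lost none and called none between genotypes. With KO 1A and 1B summed, 16 and 19 genes were called, without Hars, Tars and Tars2 in WT and without Hars, Iars, Mars1, Ears2, Hars2, Pars2 and Aimp2 in KO clones. Among called genes Gars and Tars changed sign in WT clones with library totals. Of the genes given by library, directions turned in uncalled ones: Wars2 at -0.21 (WT) and -0.34 (KO) and Eprs at -0.38 (KO) with library totals, Eprs at -0.004 in KO clones without WT clone 2, and, leaving out single libraries, Eprs from -0.193 to 0.012 (WT) and -0.032 to 0.045 (KO) and Wars2 from -0.021 to 0.085 (KO). The cause of these shifts was not tested. Depth limits Lars2 most, with 41 to 201 counts per library.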

Other observations

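Synthetases fall into a pair of unrelated folds, classes I and II, and both were counted. In WT clones 4 of 10 class I and 6 of 10 class II cytosolic enzymes rose, and 1 of class I (Mars1) fell. In KO clones 6 and 8 rose. Of the mitochondrial enzymes, 4 of 9 in class I and 4 of 7 in class II fell in WT clones, and 5 of 9 and 5 of 7 in KO clones. Of all genes tested 23.8% rose and 23.6% fell in WT clones, and 26.7% and 27.6% in KO clones.

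The mitochondrial matrix makes glutaminyl-tRNA by amidation, through the products of Qrsl1, Gatb and Gatc, in place of a synthetase of its own. Gatc fell by 0.74 ± 0.16 in WT and by 1.03 ± 0.17 in KO clones (log2, SE; edgeR adjusted p = 0.0036 and 4.1e-04), and Qrsl1 fell by 0.40 ± 0.11 and 0.31 ± 0.11. Gatb was at -0.34 ± 0.16 in WT clones (edgeR adjusted p = 0.099) and fell by 0.60 ± 0.16 in KO clones. Eef1e1, a further scaffold of the cytosolic complex, rose by 0.73 ± 0.14 and 0.93 ± 0.14 beside the smaller values of Aimp1 (0.26 ± 0.11 and 0.23 ± 0.11, not called). These genes were singled out for their role after their values were seen.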
